A study of Mus musculus with 2 samples.

Results

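Adhesion G protein-coupled receptors are the receptor family that joins a long extracellular region to 7 membrane-spanning helices. They were described here in the left cerebral cortex of male mice aged 10 days. The members are the genes whose symbol is Adgr followed by 1 letter and 1 digit and that have at least 1 protein-coding transcript. This rule gave 27 of the 55536 annotated genes, and it used no measured value. The rule leaves out the flamingo receptors Celsr1, Celsr2 and Celsr3, which are adhesion receptors with another symbol, and the pseudogene Adgrd2-ps.

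Total RNA was sequenced from 2 mice of the hybrid B6CASTF1/J, a cross of the strains C57BL/6J and CAST/EiJ. Library input was 300 ng of RNA with ERCC spike-ins, synthetic RNAs of known amount. Both libraries, called replicate 1 and replicate 2, belong to 1 group. The labels name no treatment, and no second group was analysed here. The labels number the animals separately and give both the same donor identifier, so the libraries were read as 2 animals of 1 group. No test between groups was therefore possible and no p-value is given. Errors given as ± are SDs over both libraries (n = 2). Positions are on the mouse genome mm10.

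Most adhesion receptors are cut within a conserved domain next to the membrane, the GAIN domain, during their maturation. The extracellular fragment stays attached and binds proteins on other cells or in the matrix, and a short stretch at the start of the membrane fragment can act as a tethered agonist of the receptor. In the brain the family is known for the latrophilins (Adgrl) and the brain-specific angiogenesis inhibitors (BAI, Adgrb), which act at synapses, and for Adgrg1, which acts in cortical development and in the oligodendrocyte lineage.

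Replicate 1 held 31254528 expected counts and replicate 2 held 30218308. Expected counts are reads assigned to genes, shared out where a read matches several transcripts. Levels are TPM, an abundance per transcript length that sums to the same total in each library. For a transcript with 1 kb of effective length, 1 TPM stands for 20.5 counts in replicate 1 and for 19.7 in replicate 2. The marker lists for glutamatergic and GABAergic neurons, astrocytes, oligodendrocyte precursors, myelinating oligodendrocytes, microglia, endothelium and mural cells were detected in full. The libraries differed in markers of neighbouring tissue: the 3 choroid plexus markers summed to 8.13 TPM in replicate 1 and 309 TPM in replicate 2, and the 3 striatal markers to 86.4 and 54.1 TPM. The 4 markers of blood granulocytes and lymphocytes summed to 0.51 and 1.70 TPM, and none of them was detected in both libraries.

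The adhesion receptor RNA of this cortex came mainly from 6 genes, the latrophilins Adgrl1, Adgrl2 and Adgrl3 and the BAI receptors Adgrb1, Adgrb2 and Adgrb3. These 6 genes held 83.6% of the summed TPM of the 27 members in replicate 1 and 84.1% in replicate 2. They held 89.5% and 89.4% of the members' expected counts. In all, the members held 86088 and 83759 counts, which is 0.275% and 0.277% of all counts, and their TPM summed to 919 and 948. In bulk tissue, fewer cells of a type and less RNA per cell cannot be told apart.

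A gene counts as detected where each library has at least 1 TPM. Of the 27 members 17 were detected, or 62.96%, against 59.6% of the 22028 protein-coding genes. In the second quantification of the same reads 18 members were detected, or 66.7%, against 63.5% of protein-coding genes. The share of detected members was thus near that of all protein-coding genes. The median level was 2.72 TPM in replicate 1 and 2.91 TPM in replicate 2 over the 27 members, against 3.85 and 4.06 TPM over all protein-coding genes. The family spread widely around that median: 7 members lay above the 90th percentile of protein-coding genes by mean TPM, and the highest detected member was 139 times the lowest detected one in mean TPM.

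**Figure D1:**
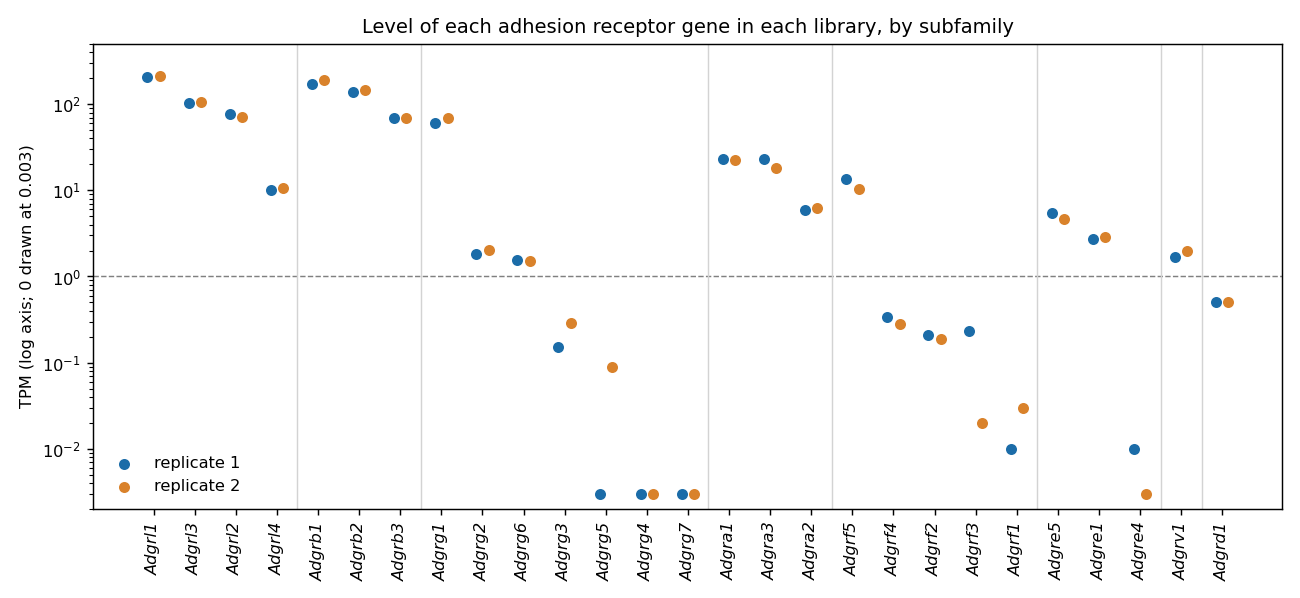
Level in TPM (log axis) of each of the 27 members in replicate 1 and replicate 2, ordered by subfamily and level. The dashed line marks the detection threshold of 1 TPM, and values of 0 are drawn at 0.003. The paired points of the detected members lie close together, with the 6 latrophilin and BAI genes between 68.7 and 213 TPM.

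The latrophilins, subfamily L, made up 43.2% of the members' summed TPM in replicate 1 and 42.4% in replicate 2. They carry a lectin domain and an olfactomedin-like domain and bind teneurins and FLRT proteins across the synapse. Adgrl1 (chr8:83900105-83941954, plus strand), the receptor of the black widow toxin alpha-latrotoxin, was the highest member, with 208 TPM in replicate 1 and 213 TPM in replicate 2. Its 31770 and 30172 counts were the most of any member. Adgrl3 (chr5:81020138-81825133, plus strand), which is linked in human genetics to attention deficit hyperactivity disorder, had 103 and 107 TPM. Adgrl2 (chr3:148815583-148990555, minus strand), which acts at synapses of hippocampal neurons, had 76.1 and 71.0 TPM. The order Adgrl1, Adgrl3, Adgrl2 was the same in both libraries and in both quantifications. The 4th gene of the subfamily, Adgrl4, is known from blood vessel endothelium and lacks the lectin and olfactomedin-like domains. It had 10.1 and 10.8 TPM, below the other 3 in each library.

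The BAI receptors, subfamily B, made up 41.5% of the members' TPM in replicate 1 and 42.8% in replicate 2. Their extracellular region holds thrombospondin repeats. Adgrb1 (chr15:74516195-74589465, plus strand), which binds phosphatidylserine on dying cells and signals to the engulfment proteins Elmo and Dock, had 173 and 191 TPM. Adgrb2 (chr4:129984870-130022633, plus strand) had 138 and 146 TPM. Adgrb3 (chr1:25067476-25829707, minus strand), which binds C1q-like proteins at synapses, had 69.9 and 68.7 TPM. The 3 genes kept the order Adgrb1, Adgrb2, Adgrb3 in both libraries, and their ranges did not overlap. The gene of Adgrb3 spans 762 kb, and 19 small genes of unproven status (class TEC) are annotated on its own strand inside it. They held 2912 counts in replicate 1 and 2613 in replicate 2, which are not part of the 6713 and 6362 counts of Adgrb3.

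In subfamily G, 1 member stood well above the other 6. Adgrg1 (chr8:94974751-95014217, plus strand), a receptor of collagen III whose loss in humans causes a malformation of the cortex, had 59.7 TPM in replicate 1 and 68.9 TPM in replicate 2. Adgrg2, best known from the male reproductive tract, had 1.81 and 2.03 TPM. Adgrg6, which Schwann cells need to form myelin in peripheral nerve, had 1.54 and 1.5 TPM. Both lay just above the detection threshold. Adgrg3 and Adgrg5, known from leukocytes, lay under it, at 0.15 and 0.29 TPM for Adgrg3 and at 0 and 0.09 TPM for Adgrg5. Adgrg5, Adgrg1 and Adgrg3 stand next to each other on chromosome 8, so the detected gene lies between its undetected relatives. Adgrg4 and Adgrg7, both known from the intestine, had 0 counts in both libraries. A count of 0 allows up to 3 counts, which equals 0.031 and 0.032 TPM for Adgrg4 and 0.056 and 0.059 TPM for Adgrg7.

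All 3 members of subfamily A were detected, and they made up 5.72% of the members' TPM in replicate 1 and 4.91% in replicate 2. Adgra1 had 23.3 and 22.3 TPM. Adgra3 had 23.4 and 18.0 TPM, so that its range held that of Adgra1. Adgra2, which with Reck forms the endothelial coreceptor for Wnt7a and Wnt7b in brain vessels, had 5.94 and 6.16 TPM. Reck itself had 3.15 and 2.89 TPM, Wnt7a 5.72 and 7.90 TPM and Wnt7b 20.7 and 21.2 TPM. Adgra2, Reck, Wnt7a and Wnt7b were thus each detected in both libraries.

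Of subfamily F only Adgrf5 was detected, at 13.6 TPM in replicate 1 and 10.2 TPM in replicate 2. Adgrf5 is known from lung epithelium, where it limits surfactant, and from endothelium. It lies in a row on chromosome 17 with Adgrf4, Adgrf2 and Adgrf1, which had 20, 14 and 1 counts in replicate 1 and 16, 12 and 2 counts in replicate 2. Their levels were 0.34 and 0.28 TPM for Adgrf4, 0.21 and 0.19 TPM for Adgrf2, and 0.01 and 0.03 TPM for Adgrf1. Adgrf3, on chromosome 5, had 2 counts and 1 count, or 0.23 and 0.02 TPM. At such counts the difference between the libraries is within counting error.

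Subfamily E is the leukocyte branch of the family. Adgre1, the F4/80 antigen of macrophages and microglia, had 2.72 TPM in replicate 1 and 2.91 TPM in replicate 2. The 4 microglia markers, which do not include Adgre1, summed to 77.4 and 74.98 TPM. Adgre5, also called CD97, a receptor of Cd55 and Thy1, had 5.44 and 4.71 TPM. Its ligand Cd55 had 3.28 and 3.07 TPM and Thy1, which is also abundant in neurons, had 338 and 334 TPM. Adgre5 overlaps Ddx39 on the opposite strand, which had 11.4 and 10.4 TPM. The sources used here do not state the strand setting of the counting, so reads in that overlap cannot be told apart. The same holds where the end of Adgra2 overlaps Brf2, which had 13.1 and 11.8 TPM. Adgre4 had 1 count in replicate 1 and 0 in replicate 2, which allows up to 0.045 TPM.

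The last 2 subfamilies have 1 gene each. Adgrv1, a very large receptor of the hair cells of the inner ear whose loss causes Usher syndrome in humans, had 1.67 TPM in replicate 1 and 1.99 TPM in replicate 2, from 264 and 282 counts. Of its partners in the Usher complex, Whrn had 21.4 and 25.2 TPM and Pdzd7 2.21 and 1.98 TPM. Adgrd1, a receptor that couples to the stimulatory G protein, had 0.51 TPM in both libraries, from 52 and 51 counts. It was the highest of the 10 undetected members and the member that the second quantification called detected in addition, at 1.08 and 1.19 TPM.

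The order of the detected members was mostly the same in both animals. Of the 16 neighbouring pairs in the order of mean TPM, 4 overlapped between their ranges over the libraries: Adgrb3 with Adgrg1, Adgra1 with Adgra3, Adgrf5 with Adgrl4, and Adgrg2 with Adgrv1. The second quantification, made from the same reads with an index of transcripts, gave levels whose Spearman rank correlation with the first over the 27 members was 0.998. Its levels were a median of 1.41 times those of the first over the detected members and 1.53 times over all detected protein-coding genes. Among the detected members the ratio was lowest for Adgrg1, at 1.04, and highest for Adgrv1, at 2.78. In the first quantification 48.0% and 49.0% of all TPM fell on protein-coding genes, against 78.0% and 79.3% in the second, so levels compare within a quantification only.

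Alternative exons were then read from the transcript tables, since latrophilins and BAI receptors are spliced in many forms. The inclusion of an exon is the TPM of the transcripts that hold it, as a percent of the TPM of those that hold or skip it. Transcripts with an overlapping exon of other ends were left out of that percent. Only internal exons of up to 210 bases were taken for which some annotated transcript joins the exons on either side directly, at the same splice sites, in the 12 members at 5 TPM or more in both libraries. There were 34 such exons in 9 genes, and 25 of them have a length that is a multiple of 3. Forms of an exon with different ends count separately, such as those of 97 and 64 bases in Adgrl2. The same holds for those of 18 and 52 bases in Adgrl3. The inclusion of such forms can therefore add up to more than 100%. In both libraries 22 of the 34 lay between 10% and 90%, of which 14 were in Adgrl1, Adgrl2 or Adgrl3 and 6 in the BAI genes. The same counts were not made over other protein-coding genes, so they do not show a trait particular to the family. Inclusion rests on how the authors' programs shared reads among annotated transcripts, and exons of 1 gene that sit on the same transcripts are not separate measurements. These exons were chosen after the transcript values were seen.

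The latrophilins share a tiny exon between an exon of 110 bases and one of 801 bases, in the stretch that joins the lectin and the olfactomedin-like domain. This insert is known to change the binding of latrophilins to teneurins, and the 3 genes used it differently, so its sequences are shown. They come from the GENCODE M21 transcripts, 5′ to 3′ on the strand of the gene, with the small exon in capitals and 20 bases of the neighbouring exons on either side. The exon lies at chr8:83926262-83926276 (plus strand) in Adgrl1, at chr3:148860427-148860438 (minus strand) in Adgrl2 and at chr5:81509724-81509738 (plus strand) in Adgrl3.
Adgrl1: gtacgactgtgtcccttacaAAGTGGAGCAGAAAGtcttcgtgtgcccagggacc
Adgrl2: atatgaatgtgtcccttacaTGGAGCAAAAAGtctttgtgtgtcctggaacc
Adgrl3: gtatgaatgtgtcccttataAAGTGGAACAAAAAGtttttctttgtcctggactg
The exon has 15 bases in Adgrl1 and Adgrl3 and 12 in Adgrl2. Aligned at their ends, Adgrl1 and Adgrl3 share 13 of 15 bases, and Adgrl2 shares 11 of 12 bases with each of the others.

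Despite this likeness the inclusion of the small exon was low in Adgrl1 and high in Adgrl2 and Adgrl3. In Adgrl1 it was 14.98% in replicate 1 and 16.8% in replicate 2. Adgrl2 had 86.4% and 84.0%, and Adgrl3 had 73.3% and 74.9%. The second quantification gave the same order of Adgrl1 against the others, with 25.7% and 28.4% in Adgrl1, 75.2% and 68.3% in Adgrl2, and 77.1% and 77.2% in Adgrl3. Adgrl2 and Adgrl3 thus changed places between the quantifications, while Adgrl1 lay under both in each.

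A second exon at matching places in the 3 genes has 39 bases, between exons of 186 and 184 bases. No annotated transcript of Adgrl1 that reaches across this exon skips it. Adgrl2 included it at 87.6% in replicate 1 and 85.4% in replicate 2, and Adgrl3 at 68.2% and 71.9%. In the second quantification Adgrl2 had 77.3% and 70.8% and Adgrl3 had 85.3% and 88.3%, so the order of these genes also depends on the quantification. Further towards the end of the genes, Adgrl2 has an exon of 45 bases and Adgrl3 one of 27 bases between exons of 92 and 169 bases. The one of Adgrl2 was included at 55.0% and 55.4% and that of Adgrl3 at 45.7% and 43.8%. These exons differ in sequence: the 27-base exon of Adgrl3 shares 21 of 27 bases with another exon of Adgrl2, of 27 bases at chr3:148827212-148827238 (minus strand). That exon of Adgrl2 was included at only 16.7% and 14.2%, below its counterpart in Adgrl3. The 129-base exon of Adgrl2 in the region of the cytoplasmic tail was included at 55.6% and 52.7%, while no annotated transcript of Adgrl1 that reaches across the matching exon skips it. Adgrl3 has an exon of the same length, which shares 77 of its 129 bases with that of Adgrl2 and was included at 9.64% and 11.6%, or 14.4% and 13.8% in the second quantification.

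**Figure D2:**
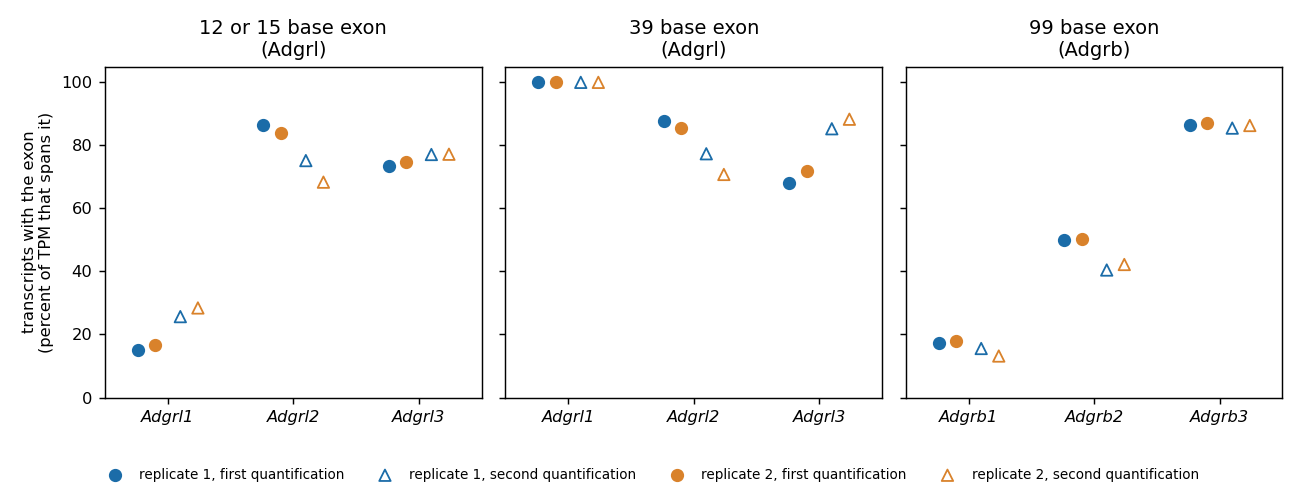
Inclusion of exons at matching places in the latrophilin and BAI genes, in percent of the TPM that spans the exon, for replicate 1 and replicate 2. Filled circles are the first and open triangles the second quantification. The small exon of Adgrl1 lies between 14.98% and 28.4% in all 4 values, and the 99-base exon rises in the order Adgrb1, Adgrb2, Adgrb3.

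The BAI genes have an exon of 99 bases at matching places, between exons of 86 and 172 bases. It lies at chr15:74577395-74577493 (plus strand) in Adgrb1, at chr4:130014935-130015033 (plus strand) in Adgrb2 and at chr1:25112177-25112275 (minus strand) in Adgrb3. The sequences are shown because exons of equal length and place had very different inclusion by TPM. The source and layout are those of the latrophilin exons, with the 99-base exon in capitals.
Adgrb1: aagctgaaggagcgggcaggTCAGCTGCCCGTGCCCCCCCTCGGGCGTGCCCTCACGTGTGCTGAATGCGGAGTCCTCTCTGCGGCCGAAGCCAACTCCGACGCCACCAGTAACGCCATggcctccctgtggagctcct
Adgrb2: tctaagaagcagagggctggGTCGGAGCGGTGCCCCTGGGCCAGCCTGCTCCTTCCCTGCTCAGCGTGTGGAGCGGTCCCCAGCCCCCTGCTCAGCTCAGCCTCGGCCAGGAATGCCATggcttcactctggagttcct
Adgrb3: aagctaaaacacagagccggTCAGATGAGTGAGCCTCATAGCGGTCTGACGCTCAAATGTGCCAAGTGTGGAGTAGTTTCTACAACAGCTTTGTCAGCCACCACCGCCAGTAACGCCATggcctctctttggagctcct
Adgrb1 and Adgrb3 share 58 of the 99 bases, Adgrb1 and Adgrb2 share 47, and Adgrb2 and Adgrb3 share 45.

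Inclusion of the 99-base exon was 17.4% in replicate 1 and 17.8% in replicate 2 for Adgrb1. For Adgrb2 it was 50.0% and 50.4%, and for Adgrb3 it was 86.6% and 87.3%. The libraries differed by less than 1 percentage point, far less than the genes did. The second quantification gave the same order, with 15.6% and 13.2% in Adgrb1, 40.5% and 42.2% in Adgrb2 and 85.5% and 86.3% in Adgrb3. In Adgrb1 the exon is annotated in 1 transcript alone, Adgrb1-208, which is classed as a processed transcript without a coding sequence. Its inclusion in Adgrb1 is therefore bounded by the annotation. Adgrb1-208 held 970 and 1003 counts, against 11880 and 11961 counts of the transcripts that skip the exon.

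A further exon of Adgrb2 was skipped in part of its transcripts. This exon at chr4:130006752-130006916, of 165 bases and in the region of the thrombospondin repeats, was included at 57.5% in replicate 1 and 60.1% in replicate 2. An exon of Adgrb1, with 174 bases, and one of Adgrb3, with 165 bases, also lie between exons of 165 bases. They are skipped by no annotated transcript that reaches across them. Aligned at their ends over 165 bases, the Adgrb2 exon shares 85 bases with that of Adgrb1 and 80 with that of Adgrb3. Those of Adgrb1 and Adgrb3 share 102. Exons next to each other have like lengths here, so lengths alone cannot show which exons are counterparts, and this was not tested. Another 165-base exon of Adgrb2, at chr4:130005390-130005554, was included at 60.7% and 58.4%. The 2 main transcripts of Adgrb2 each lack 1 of these exons: Adgrb2-207 accounts for all the skipping of the first and Adgrb2-208 is the main form without the second. A 63-base exon, annotated in 1 transcript of Adgrb2, was included at 4.48% and 6.45%, or 14.1% and 12.7% in the second quantification.

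The transcripts of the 12 members at 5 TPM or more in both libraries were grouped by annotated class. A near-full-length transcript is one whose complete coding sequence has at least 80% of the longest annotated one of its gene. Its share was computed both of the TPM and of the expected counts, because TPM weights short transcripts strongly. Over the 12 genes the median share of near-full-length transcripts was 63.3% of TPM, 90.8% of counts and 78.4% of the TPM of the second quantification. These 3 readings show how far the answer depends on the unit.

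Near-full-length transcripts held over 50% of the expected counts in 10 of the 12 genes. This was not counted over other protein-coding genes, so it does not show a trait particular to the family. Adgrl1 held 79.3 ± 3.30% (SD, n = 2) of its TPM in Adgrl1-207, a transcript with 23 exons and 1466 codons. Adgrb3-207 held 67.5 ± 0.42% and Adgra1-201 76.9 ± 2.14% of their genes. For Adgra2 the top transcript was Adgra2-201 at 71.3 ± 15.1%, with Adgra2-202 at 22.4 ± 12.3%. Adgrb2 divided its TPM between Adgrb2-207 at 34.7 ± 1.46% and Adgrb2-208 at 34.1 ± 1.47%. Near-full-length transcripts held more than 95% of the expected counts of Adgrl1, Adgrb2, Adgra1, Adgra2 and Adgra3.

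Adgrb1 and Adgrl3 had less than 50% of their expected counts in near-full-length transcripts. The coding transcript Adgrb1-201 held 21.9 ± 0.47% of the TPM of Adgrb1, and Adgrb1-206, which has the same number of exons and is annotated as a target of nonsense-mediated decay, held 21.6 ± 0.59%. Transcripts of that decay class made up 45.2% of the expected counts of Adgrb1 and 29.7% of its TPM, and 18.7% of the TPM of the second quantification. Adgrl3, with 35 annotated transcripts the most of any member, had no transcript above 20% of its TPM in the first quantification. In the second, Adgrl3-223 held 21.5 ± 2.79%. The decay class made up 6.97% of the TPM of Adgrl3 in the first quantification and 21.5% in the second. In the first, the top transcript of Adgrl3 was Adgrl3-228, a retained-intron form, at 15.6 ± 2.15%. Near-full-length forms there held 17.4% of TPM and 26.6% of counts. Adgrl2 lay between, at 54.6% of TPM and 73.5% of counts, and its top transcript Adgrl2-203, at 24.1 ± 0.40%, is annotated with 239 codons.

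**Figure D3:**
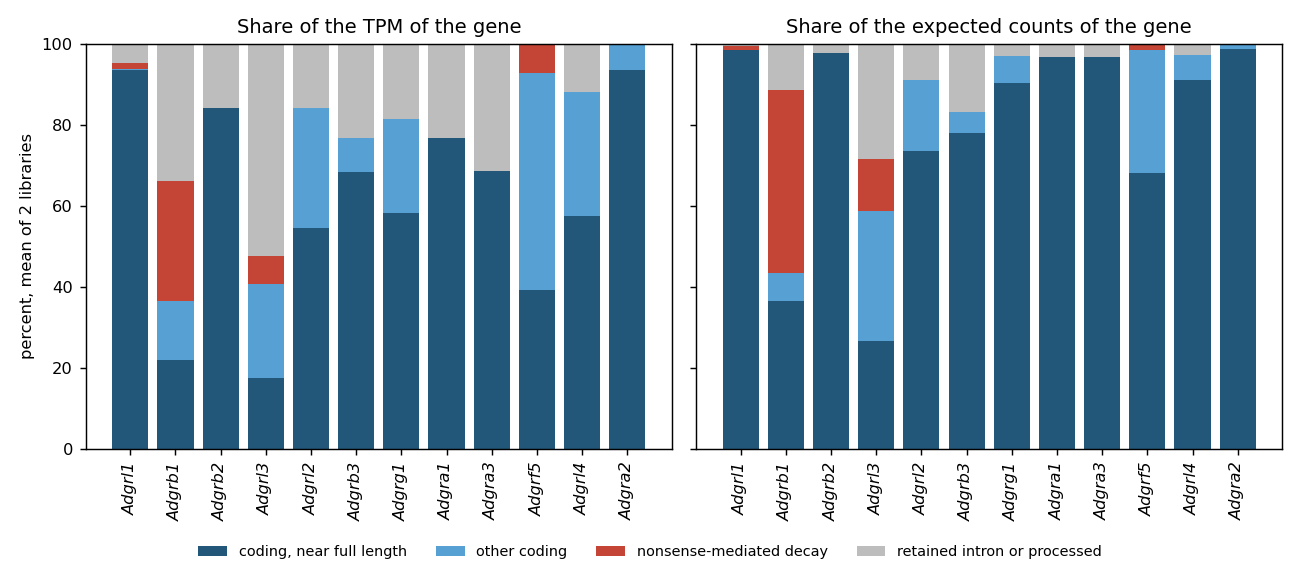
Share of transcript classes in the 12 members at 5 TPM or more, as percent of TPM and as percent of expected counts, mean of the 2 libraries. Adgrb1 and Adgrl3 have the lowest shares of near-full-length coding transcripts on both scales, 21.9% and 17.4% of TPM and 36.5% and 26.6% of counts.

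In several members short transcripts carried much of the TPM. In Adgrb1, transcripts of up to 1 kb held 25.6% of TPM but 4.21% of counts. For Adgrg1 the top transcript Adgrg1-201 held 49.1 ± 1.60% of TPM, and transcripts of up to 1 kb held 41.8% of TPM but 9.53% of counts. Adgrf5-202, a fragment with an incomplete coding sequence, held 30.9 ± 4.31% of the TPM of Adgrf5, against 5.11% of its counts. Adgrf5 has 2 near-full-length transcripts. Adgrf5-206 held 15.2% of TPM in replicate 1 and 26.8% in replicate 2, and Adgrf5-201 held 16.5% and 19.7%. Together they held 39.1% of TPM and 68.2% of counts. Adgrl4-201 held 57.5 ± 4.69% and the incomplete Adgrl4-205 30.7 ± 14.3% of the TPM of Adgrl4. By counts its coding forms short of full length held 6.18%. The second quantification split Adgrl4 otherwise, with 42.2 ± 1.89% of TPM in Adgrl4-201. There the noncoding forms held 56.4% in replicate 1 and 37.8% in replicate 2, against 18.6% and 5.02% in the first quantification. In the 215-base retained-intron form Adgra3-203 the libraries differed, at 40.5% of the TPM of Adgra3 in replicate 1 and 8.06% in replicate 2, from 22.6 and 3.31 counts. The coding form Adgra3-201 held 68.5 ± 16.0% of TPM.

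The top transcript was shared by both quantifications in 14 of the 17 detected members, or 82.4%, against 78.5% of all detected protein-coding genes and 76.2% of those with several transcripts. This is near the background. The exceptions were Adgrl2, with Adgrl2-203 in the first and Adgrl2-214 in the second, Adgrl3, with Adgrl3-228 and Adgrl3-223, and Adgrv1, with Adgrv1-204 and Adgrv1-210. In Adgrv1 the coding transcript of 90 exons and 6298 codons, Adgrv1-201, held 17.6% of TPM and 45.7% of counts.

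The libraries of the 2 animals were then compared, as the log2 ratio of TPM plus 0.1, replicate 1 over replicate 2, for members whose expected counts averaged at least 100. Of the 17 such members 0 differed by 0.5 or more on the log2 scale, against 2.07% of the 11995 protein-coding genes with that count. The median absolute log2 difference was 0.09 both over the 17 members and over all these genes. The differences ran from -0.24 in Adgrv1 to 0.41 in Adgrf5, and 10 of the 17 members were lower in replicate 1. The median log2 ratio was -0.05 over these members and -0.04 over all protein-coding genes with that count, so the lean was near the background. With 1 library per animal no test of this difference was made.

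The members with the largest differences in TPM had count ratios near 1. Adgrf5 differed by 0.41 on the log2 scale in TPM, while its ratio of CPM, that is counts as a share of the library's total, was 1.07 with a 95% exact interval from 0.978 to 1.18, from 925 and 832 counts. Adgra3 differed by 0.38 in TPM, while its CPM ratio was 0.948, with an interval from 0.876 to 1.03, from 1249 and 1274 counts. The TPM of its coding form Adgra3-201 was 13.4 in replicate 1 and 14.4 in replicate 2, and that of the short form Adgra3-203 was 9.47 and 1.45. In the second quantification Adgra3 differed by -0.09, Adgrg1 by 0.17 against -0.21 in the first, and Adgre5 by -0.18 against 0.20. The sign of these 3 small differences therefore depends on the quantification.

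The interval of the CPM ratio left out 1 for 6 of the 17 members, or 35.3%, against 24.4% of protein-coding genes with that count. It covers counting error only, and reads are not independent molecules. For 5 of the 6, Adgrl1, Adgrb1, Adgrb2, Adgrl2 and Adgra1, the ratio lay between 0.952 and 1.08. For Adgrg6 it was 0.741, with an interval from 0.578 to 0.948, from 118 and 154 counts, while its TPM was 1.54 and 1.5. The choroid plexus and striatal markers also differed between these libraries, and their part in any of these differences was not tested.

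**Figure D4:**
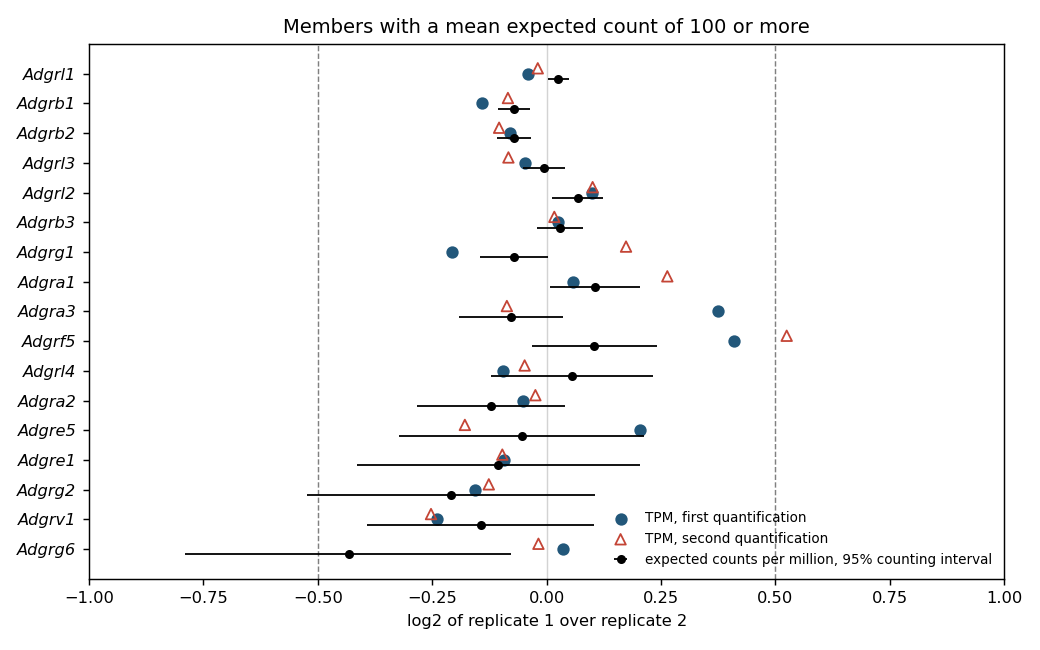
Difference between the libraries as log2 of replicate 1 over replicate 2 for the 17 members whose expected counts averaged at least 100. Circles and triangles are TPM of the first and second quantification, and black points are CPM with 95% exact counting intervals. Dashed lines mark 0.5, which in the first quantification no member passes and in the second Adgrf5 passes at 0.52.

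Binding partners of the receptors were described from lists taken from textbook knowledge. Their counts of detected genes stand against 59.6% of all protein-coding genes at the same threshold. All 10 latrophilin ligands were detected, with a median of 53.6 TPM in replicate 1 and 61.0 TPM in replicate 2. Nrxn2, a neurexin, had 389 and 399 TPM, and Nrxn3 had 89.3 and 89.0 TPM. The teneurins Tenm3, Tenm2, Tenm4 and Tenm1 lay from 36.3 to 63.1 TPM in replicate 1 and from 36.8 to 68.4 TPM in replicate 2. Flrt2 had 29.1 and 29.9 TPM, Flrt3 14.8 and 14.3 TPM and Flrt1 10.7 and 12.04 TPM. All 3 ligand families of the latrophilins were thus present in the same tissue as their receptors.

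Of the 7 BAI ligands 5 were detected. The Nogo receptor family, which binds BAI proteins, had Rtn4rl2 at 38.3 TPM in replicate 1 and 36.6 TPM in replicate 2, Rtn4r at 34.1 and 36.7 TPM and Rtn4rl1 at 21.9 and 22.6 TPM. Among the C1q-like ligands of Adgrb3, C1ql3 led with 23.7 and 22.5 TPM, followed by C1ql1 with 11.1 and 11.3 TPM. C1ql2 had 0.72 and 1.31 TPM and C1ql4 is listed at 0 in both libraries. The C1q-like ligands were therefore represented mainly by C1ql3 and C1ql1.

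All 10 ligands and coreceptors of other members were detected. The prion protein gene Prnp, whose product is a ligand of Adgrg6, had 179 and 180 TPM. Collagen IV is another ligand of Adgrg6, and Col4a1 had 57.2 and 55.9 TPM. Lama2, a subunit of the laminin that binds Adgrg6, had 5.75 and 5.98 TPM. For Adgrg1, the ligand Col3a1 had 21.03 and 24.98 TPM and the ligand Tgm2, a transglutaminase, 3.21 and 3.17 TPM. Both ligands of Adgrg1 were thus lower than the receptor in TPM.

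Inside the cell, 11 of 12 G protein alpha subunits were detected, with Gnas at 910 and 944 TPM, Gnao1 at 497 and 513 TPM, Gnai2 at 107 and 111 TPM, Gnai1 at 95.8 and 92.1 TPM and Gnaq at 91.7 and 94.3 TPM. Gna13, a subunit through which Adgrg1 is known to signal, had 21.6 TPM in both libraries. Gna14 had 0.11 TPM in both. All 16 intracellular partners were detected. The scaffolds of the postsynaptic density were among the highest, with Dlg4 at 408 and 418 TPM, Shank1 at 197 and 206 TPM and Shank3 at 91.7 and 98.4 TPM. Rhoa had 97.6 and 94.99 TPM and Arrb1 77.7 and 88.2 TPM. Of the engulfment partners, Elmo2 had 47.5 and 52.2 TPM and Elmo1 22.0 and 20.9 TPM, while Dock1 was the lowest of the list in both libraries, at 9.04 and 9.39 TPM.

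Other receptor families give the scale of these levels. The flamingo receptors, adhesion receptors that order cells within a sheet, had Celsr2 at 78.1 TPM in replicate 1 and 81.2 TPM in replicate 2, Celsr3 at 26.7 and 31.1 TPM and Celsr1 at 1.12 and 1.54 TPM. By the first quantification Celsr2 lay between Adgrl3 and Adgrl2. By the second it had 106 and 109 TPM, and Adgrl2 had 108 and 100.5 TPM. The highest metabotropic glutamate receptor, Grm5, had 99.4 and 99.2 TPM, the highest Frizzled receptor, Fzd3, 36.7 and 38.8 TPM, and the highest G protein-coupled serotonin receptor, Htr2c, 15.2 and 19.1 TPM. In the first quantification each of Adgrl1, Adgrb1, Adgrb2 and Adgrl3 was above all of these in both libraries. In the second this held for Adgrl1 and Adgrb1 alone, since Grm5 had 199 and 200.3 TPM there, against 189 and 203 TPM for Adgrb2 and 131 and 139 TPM for Adgrl3. Of the other glutamate receptors, Grm3, Grm7, Grm2, Grm4 and Grm8 lay between 9.21 and 64.7 TPM in replicate 1 and between 8.49 and 68.1 TPM in replicate 2, and Grm6 was at 0 and 0.02 TPM. Of the other Frizzled receptors, Fzd1, Fzd2, Fzd9, Fzd6, Fzd4, Fzd7, Fzd8 and Fzd10 lay between 1.76 and 8.28 TPM in replicate 1 and between 1.68 and 8.23 TPM in replicate 2, and Fzd5 had 0.54 TPM in both. After Htr2c came Htr2a, Htr7, Htr1a and Htr5a, between 5.96 and 8.76 TPM in replicate 1 and between 6.17 and 7.5 TPM in replicate 2, while Htr5b had 1.59 and 1.55 TPM and Htr2b 0.17 and 0.13 TPM. Medians were 20.9 and 21.3 TPM over 8 metabotropic glutamate receptors, 3.75 and 3.87 TPM over 10 Frizzled receptors and 4.70 and 4.56 TPM over 12 serotonin receptors, against 2.72 and 2.91 TPM over the 27 members.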

How the data were processed

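Tables were deposited per library by the authors, on mm10 with GENCODE M21 per the deposited descriptions. The first quantification, from transcriptome alignments, gives expected counts, TPM, the percent of each gene's abundance per transcript, and interval bounds of other scale and unstated level, per the file headers. The second, from reads with an index, gives deposited estimated counts and TPM per transcript, summed here by gene. The sources used here name no program version or strand setting. Effective length in the first is the length minus 99 bases, which raises the TPM of short transcripts.

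Members, lists and exons were chosen with earlier results of these data known. Named were all members, the top transcript and others at 20% or more for members at 5 TPM, and all list genes, or the 5 highest and 2 lowest of longer lists. Exons, transcripts of Adgrv1 and transcripts that differ between the quantifications were named after their values were seen. Ratios used TPM plus 0.1 and a mean expected count of 100. Alternatives included TMM factors (edgeR 4.0.16) and DESeq2 1.42.0 size factors in R 4.3.3, with counts rounded. Tables and exact 95% intervals used Python 3.11.15 and scipy 1.17.1. The libraries differed beyond sampling noise (chi-square 5.06 per gene over 18515 genes) and were kept as 2 samples. The ratio step was tested on simulated data. A few listed genes are not reported here.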

Additional observations from a re-analysis of the deposited data

How the results depend on the processing

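The count of detected members stayed at 17 with either library alone and with the posterior mean, was 18 in the second quantification, over nuclear protein-coding genes and at 0.5 TPM, and was 14 at 2 TPM. The median member level of 2.81 TPM was 5.10 in the second quantification, 5.80 with TPM over nuclear protein-coding genes, 3.54 as posterior mean and 20.6 over the detected members, and ranged from 2.72 to 2.91 with 1 library left out. No member passed a log2 difference of 0.5 between the libraries, but 1 did in the second quantification, Adgrf5, and 3 did without the count filter, Adgrf3, Adgrg3 and Adgrg5, each at 8 counts or fewer. The median log2 difference stayed between -0.05 and -0.04 under all settings run. The count of members with the same top transcript ranged from 11 to 14 of 17 with 1 library left out, and was 10 of the 12 members at 5 TPM or more. Levels of 20 of the 27 members and inclusion of 27 of the 34 exons moved by more than 1 SD in the second quantification, and the exon alternative was chosen after seeing the data. The cause was not tested. No paired analysis was possible because the study has 1 group. Of the 10 undetected members 9 had 20 counts or fewer in each library, which limits the precision of their values.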

Other observations

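The pseudogene Adgrd2-ps, outside the symbol rule, had 1 count in replicate 1 and 0 in replicate 2. The processed pseudogene Rps16-ps2, inside an intron span of Adgrd1 on the opposite strand, had 63.9 and 86.6 TPM, against 0.51 TPM in both libraries for Adgrd1. Gm10335, a processed pseudogene inside Adgrg6 on the opposite strand, had 9.75 and 4.16 TPM. The expected counts of both pseudogenes were fractional, at 448.6 and 583.4 for Rps16-ps2 and 73.8 and 30.2 for Gm10335. Part of their reads therefore also matched other genes, and these levels are uncertain. Over the 34 alternative exons the inclusion differed by a median of 1.98 percentage points between the libraries and of 3.23 between the quantifications. The widest gap between the libraries was 19.0 points, for the 150-base exon of Adgrl4, at 77.5% in replicate 1 and 58.5% in replicate 2. It rests on few counts of transcripts that skip the exon, 21.3 and 43.2, against 518 and 465 counts of those that hold it. In the second quantification the inclusion was 100% and 74.1%.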
